A study of Rattus norvegicus with 6 samples.

Results

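The 7 genes described here are Nfe2l2, which encodes the stress-response transcription factor NRF2, and the antioxidant enzyme genes Hmox1, Nqo1, Gclc, Sod1, Sod2 and Cat. They were chosen by gene identifier from the 21417 rat genes of the deposited table, with earlier results of these data already known. All 7 were listed, and all 7 had a mean of at least 1 FPKM (fragments corrected for the length of the gene and the total of the library), the minimum for testing, which 13591 genes met. The deposited table pairs no identifier with a symbol, so each symbol is the one the selection rule gave its identifier, and no table used here tests that pairing. The tissue was colon from the site of the join in male Sprague-Dawley rats, which are outbred, taken 2 weeks after an end-to-end colonic join. In 3 libraries the cut ends had been joined by magnetic compression (MCA), in which a pair of magnets presses the bowel ends together. In the other 3 libraries, the controls, they had been joined by conventional suture. Bulk RNA sequencing of 1 library per sample served to compare gene expression between the 2 ways of joining the bowel. No unoperated colon was among the samples, so every value is that of a healing join.

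NRF2 is a transcription factor that the adaptor KEAP1 normally marks for degradation. When oxidants or electrophiles modify KEAP1, NRF2 accumulates, pairs with small MAF proteins and binds antioxidant response elements in DNA, which raises transcription of enzymes that detoxify quinones, break down heme and make glutathione. Much of this control acts on the NRF2 protein, which RNA sequencing does not measure. Superoxide dismutases turn superoxide into hydrogen peroxide, and catalase turns hydrogen peroxide into water and oxygen. In gut these enzymes work in epithelium, muscle and immune cells alike. In a piece of whole bowel wall, a change in the number of cells of a type cannot be told apart from a change in RNA per cell. Markers of cell types were not analysed here, because their identifiers could not be named.

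RefSeq promoter windows, from 250 bases before to 50 bases after each gene's start on build GRCr8, were found for 6 of the 7 genes. The 250 bases before the start are printed for Nfe2l2 and Nqo1, which had the highest Pearson correlation of the 21 pairs across libraries, and for Sod2, whose level did not overlap between the groups. Each is written 5′ to 3′ in the direction of the gene, and all 3 lie on the minus strand. Capitals mark a match to the core letters of the antioxidant response element, TGACNNNGC, or to their reverse complement, GCNNNGTCA.
Nfe2l2, chr3:81029000-81029249: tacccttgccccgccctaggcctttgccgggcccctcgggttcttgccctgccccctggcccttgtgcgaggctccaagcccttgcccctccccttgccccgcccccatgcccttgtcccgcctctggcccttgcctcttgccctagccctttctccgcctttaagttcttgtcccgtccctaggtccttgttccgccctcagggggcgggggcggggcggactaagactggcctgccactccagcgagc
Nqo1, chr19:52220268-52220517: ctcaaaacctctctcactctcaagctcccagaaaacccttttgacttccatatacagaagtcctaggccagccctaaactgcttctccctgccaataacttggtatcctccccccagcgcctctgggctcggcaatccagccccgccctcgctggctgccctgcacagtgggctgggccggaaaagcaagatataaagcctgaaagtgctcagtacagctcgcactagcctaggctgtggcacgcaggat
Sod2, chr1:50050169-50050418: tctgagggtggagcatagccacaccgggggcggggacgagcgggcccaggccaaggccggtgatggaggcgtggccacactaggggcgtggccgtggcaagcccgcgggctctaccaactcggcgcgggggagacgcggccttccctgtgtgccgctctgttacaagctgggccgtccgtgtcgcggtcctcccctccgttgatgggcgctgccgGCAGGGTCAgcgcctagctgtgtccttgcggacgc

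The Sod2 window held 1 match, on the opposite strand, beginning 35 bases before the start. The Nfe2l2 window held 1 match, TGACGCCGC, on the gene's own strand and beginning at base 39 after the start, outside the stretch printed. The windows of Nqo1, Gclc, Sod1 and Cat held 0 matches. Over all 33469 windows of 300 bases, 12.1% held at least 1. A match is a description of letters and not a bound site, and 0 matches say only that these letters are not in the window.

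The depth of the libraries was even, but their likeness to each other was not. Library totals recovered from the FPKM values ran from 14867454 to 15791079 fragments. MCA replicate 2 resembled the others least, with a mean Spearman correlation of 0.850 across the tested genes with the remaining 5, where each other library reached 0.880 to 0.926. The 7 most abundant genes took from 18.7% of FPKM in suture replicate 1 to 37.3% in suture replicate 2. Group comparisons whose call or direction changed without MCA replicate 2 are also given without it.

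Across the set, Hmox1 had the smallest p of the 7, with a mean 3.06 times the suture mean in MCA tissue, and Sod2 came next. Nfe2l2 and Nqo1 had higher means with MCA, but their libraries overlapped. Gclc, Sod1 and Cat had group means on the log scale close to each other. By limma with Benjamini-Hochberg adjustment 0 of the 7 genes passed an adjusted p of 0.05, as did 0.00% of the 13591 genes tested. Only Hmox1 had an unadjusted limma p under 0.05, a call made for 4.91% of all tested genes and, with a higher level in MCA, for 3.50%. With all 6 libraries kept, Sod2 also came under 0.05 in 6 other settings (4 scalings, array quality weights and a replicate block). Of the 13591 genes tested, 667 came under 0.05 in the main fit and 700 to 757 with the scalings. The weights gave 1360 and the block 1141. The groups did not overlap for 2 of the 7, Hmox1 and Sod2, both higher with MCA. Of all tested genes, 8.70% did not overlap, and 6.18% did so with the higher level in MCA. The mean of log2(FPKM + 1) was higher with MCA for 5 of the 7 genes, against 46.6% of all tested genes. The median log2 fold was 0.50 over the 7 genes and -0.02 over all tested genes. Without MCA replicate 2, 7 of the 7 had a higher mean with MCA, against 57.1% of all tested genes. In that smaller comparison Nfe2l2, Hmox1, Nqo1 and Sod2 did not overlap between the groups, as was the case for 24.1% of all tested genes, 18.0% with the higher level in MCA. The same 4 genes had an unadjusted limma p under 0.05 there, against 7.84% of all tested genes, and 0 of the 7 passed the adjusted threshold. Without MCA replicate 3 instead, Hmox1 and Sod2 did not overlap, as was the case for 13.3% of all tested genes. Of the 7, Hmox1 alone then had an unadjusted limma p under 0.05, a call made for 511 of the 13591 genes.

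**Figure D1:**
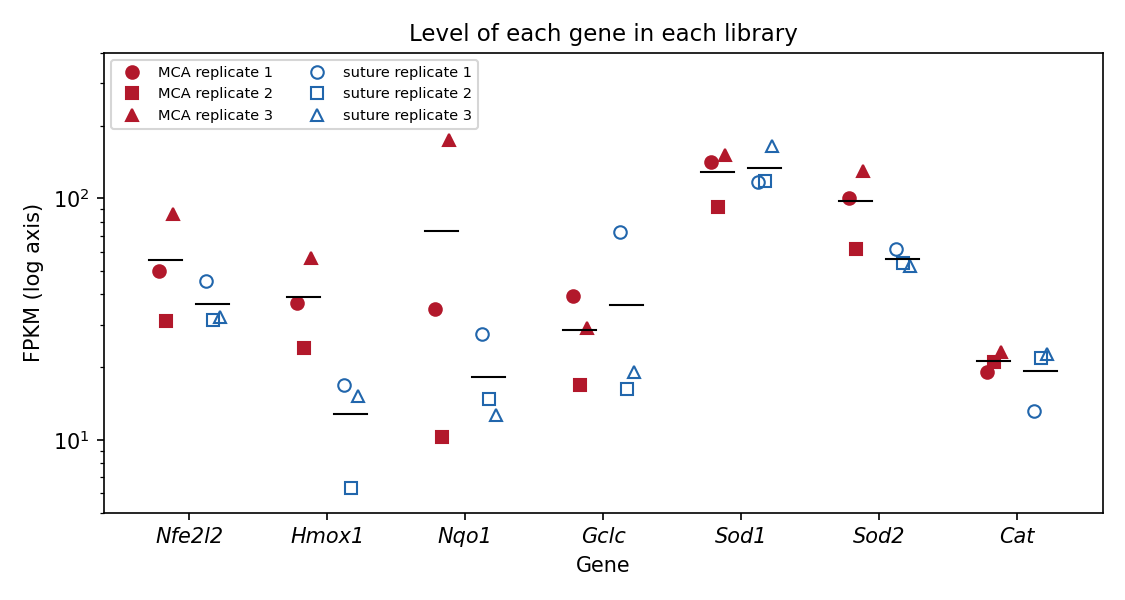
FPKM of the 7 genes in each library on a log axis, with filled red symbols for MCA, open blue symbols for suture, 1 symbol shape per replicate number and a bar at each group's mean (n = 3). Hmox1 lies between 23.9 and 56.6 FPKM in MCA and between 6.33 and 16.9 FPKM in suture, and Nqo1 reaches 174 FPKM in MCA replicate 3.

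Nfe2l2 (ENSRNOG00000001548) was well expressed in every library. In the MCA group 50.0, 31.1 and 86.0 FPKM were measured in replicates 1, 2 and 3. The suture group gave 45.5, 31.3 and 32.3 FPKM in the same order. MCA replicate 3 was the highest, and MCA replicate 2 lay with the 2 lowest suture libraries, so the groups overlapped. MCA averaged 55.7 ± 27.9 FPKM (SD, n = 3) and suture 36.4 ± 7.94 FPKM (SD, n = 3), so that the MCA mean was 1.53 times the suture mean. The log2 fold, on the log2(FPKM + 1) scale used throughout, was 0.50 ± 0.39 (standard error) with a 95% interval from -0.43 to 1.43 (limma adjusted p = 0.9997, exact permutation p = 0.4). Here 3 libraries against 3 cannot give a permutation p below 0.1. The value depended on single libraries. Its log2 fold became 0.85 without MCA replicate 2 (limma adjusted p = 0.621) and 0.13 without MCA replicate 3.

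Hmox1 (ENSRNOG00000014117) encodes heme oxygenase 1, which splits heme into biliverdin, iron and carbon monoxide. It is a known NRF2 target that the repressor BACH1 also controls, and it is abundant in macrophages that clear red cells. MCA replicates 1, 2 and 3 had 37.0, 23.9 and 56.6 FPKM. Suture replicates in the same order had 16.9, 6.33 and 15.1 FPKM. Every MCA library lay above every suture library, with a gap of 7.01 FPKM between the nearest pair. MCA averaged 39.2 ± 16.4 FPKM (SD, n = 3) and suture 12.8 ± 5.67 FPKM (SD, n = 3), so that the MCA mean was 3.06 times the suture mean. The fitted log2 fold was 1.56 ± 0.45 (standard error) with a 95% interval from 0.50 to 2.62. The unadjusted limma p was 0.0101, the 225th smallest of 13591, and the adjusted p was 0.608. The exact permutation p was 0.1, the smallest this design allows. Among all tested genes, 0.890% had a log2 fold at least as high. Ranked within each library, Hmox1 stood between the 79.5 and 90.1 percentile of tested genes with MCA and between the 41.5 and 66.8 percentile with suture; within-library ranks do not move with scaling.

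Nqo1 (ENSRNOG00000012772) encodes the NAD(P)H quinone reductase that NRF2 classically induces. It was the most variable of the 7 genes. With MCA, replicates 1, 2 and 3 measured 34.9, 10.3 and 174 FPKM, a range of 16.9-fold within the group. With suture the values were 27.4, 14.7 and 12.6 FPKM in the same order. The highest and the lowest of the 6 values were both MCA libraries. The coefficient of variation (the SD over the mean) was 121% with MCA, larger than that of 98.6% of tested genes, and 43.6% with suture. The group means of 73.2 ± 88.5 FPKM (SD, n = 3) and 18.2 ± 7.96 FPKM (SD, n = 3) had a ratio of 4.01, which rested on MCA replicate 3. On the log2 scale the fold was 1.18 ± 0.92 (standard error) with a 95% interval from -0.999 to 3.36 (limma unadjusted p = 0.241, exact permutation p = 0.5). It was 0.14 without MCA replicate 3 and 2.12 without MCA replicate 2 (limma adjusted p = 0.503).

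Gclc (ENSRNOG00000006302) encodes the catalytic subunit of glutamate-cysteine ligase, the rate-limiting enzyme of glutathione synthesis. MCA replicates 1, 2 and 3 held 39.4, 16.8 and 29.2 FPKM of it. Sutured joins gave 72.9, 16.3 and 19.2 FPKM in the same order. Suture replicate 1 had the highest value of the 6 libraries and suture replicate 2 the lowest. The suture coefficient of variation of 88.2% exceeded that of 97.7% of tested genes. For Gclc the log2 fold was -0.08 with a 95% interval from -1.50 to 1.33 (limma, unadjusted p = 0.894), an interval that does not exclude a 2-fold difference either way. The sign depended on single libraries, with a log2 fold of 0.58 without suture replicate 1 and 0.24 without MCA replicate 2.

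Sod1 (ENSRNOG00000002115) encodes the copper-zinc superoxide dismutase of the cytosol and had the highest mean level of the 7 genes, with Nqo1 above it in MCA replicate 3. The 3 MCA replicates, in order, gave 141, 92.1 and 151 FPKM. In suture tissue, in the same order, 117, 118 and 165 FPKM were measured. The lowest value came from MCA replicate 2 and the highest from suture replicate 3, and the other 2 suture values lay inside the MCA range. MCA averaged 128 ± 31.7 FPKM (SD, n = 3) and suture 133 ± 27.6 FPKM (SD, n = 3). A log2 fold of -0.07 was fitted to all 6 libraries, with a 95% interval from -0.80 to 0.66. In that fit, the interval excludes a 2-fold difference in either direction on this scale, which does not hold in every fit with 1 library left out. The fold was -0.20 ± 0.35 (standard error) without MCA replicate 3 and -0.16 ± 0.39 without MCA replicate 1. Its sign changed without MCA replicate 2 (0.15) and without suture replicate 3 (0.09).

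Sod2 (ENSRNOG00000019048) encodes the manganese superoxide dismutase of mitochondria, a gene that inflammatory cytokines are known to induce. Magnetic compression libraries 1, 2 and 3 had 100.2, 61.8 and 129 FPKM. Suture libraries had 61.7, 54.2 and 52.4 FPKM in the same order. The groups did not overlap, but the gap between MCA replicate 2 and suture replicate 1 was 0.0981 FPKM. The counting error of those 2 values was 2.30% and 2.25%, so their order is not resolved at this depth. MCA averaged 97.1 ± 33.9 FPKM (SD, n = 3) and suture 56.1 ± 4.94 FPKM (SD, n = 3), so that the MCA mean was 1.73 times the suture mean. Fitted on the log2 scale, the fold was 0.72 ± 0.32 (standard error) with a 95% interval from -0.03 to 1.48 (limma unadjusted p = 0.058, adjusted p = 0.9997, exact permutation p = 0.1). Without MCA replicate 2 it was 1.01 (limma adjusted p = 0.415), and without MCA replicate 3 it was 0.49. The suture libraries lay close together, with a coefficient of variation of 8.81%, against 34.9% with MCA and a median of 26.5% over tested genes with suture.

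Cat (ENSRNOG00000008364) encodes catalase, the peroxisomal enzyme that breaks down hydrogen peroxide. Over all 6 libraries it had the lowest mean level of the 7 genes, although with suture its mean of 19.2 FPKM lay above those of Nqo1 and Hmox1. MCA tissue gave 19.2, 21.1 and 23.1 FPKM in replicates 1, 2 and 3. The 3 suture replicates had 13.2, 21.7 and 22.8 FPKM in the same order. Suture replicate 1 was low and the other 5 libraries lay between 19.2 and 23.1 FPKM. For Cat the fold was 0.16 on the log2 scale with a 95% interval from -0.46 to 0.79 (limma, unadjusted p = 0.558). In this fit of all 6 libraries, the interval excludes a 2-fold difference on this scale, which does not hold in every fit with 1 library left out. The fold was 0.30 ± 0.30 (standard error) without suture replicate 3 and 0.27 ± 0.31 without suture replicate 2. Without suture replicate 1 it was -0.08. In the main fit of all 6 libraries, Sod1 and Cat were the 2 genes of the 7 whose interval lay within 1 log2 unit of 0.

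**Figure D2:**
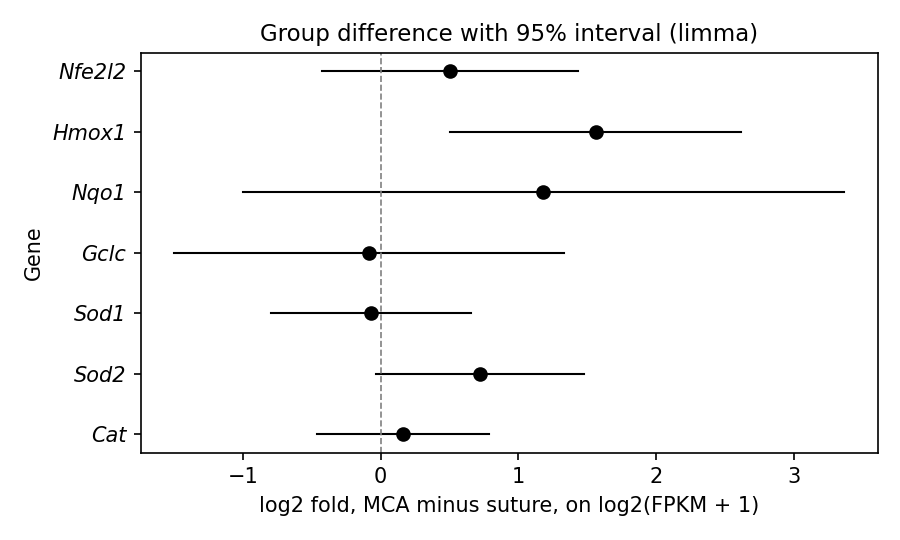
Log2 fold of each gene, MCA minus suture on log2(FPKM + 1), as points with their 95% intervals from limma (3 libraries per group) and a dashed line at 0. The interval of Hmox1 runs from 0.50 to 2.62 before any adjustment for the number of genes tested, and the other 6 intervals include 0.

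Counting error was small beside the spread between animals. Between 155 fragments (Hmox1 in suture replicate 2) and 4294 fragments (Nqo1 in MCA replicate 3) stood behind each value, which gives a counting error between 8.03% and 1.53% of the value. The coefficients of variation within groups ran from 8.81% for Sod2 with suture to 121% for Nqo1 with MCA. The errors cover counting only, not library preparation.

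FPKM is scaled to gene length, so levels of different genes were set side by side. It corrects for length and library total only, and the annotation behind the lengths is not given. By mean FPKM over the 6 libraries the order was Sod1 (131), Sod2 (76.6), Nfe2l2 (46.0), Nqo1 (45.7), Gclc (32.3), Hmox1 (26.0) and Cat (20.2). Sod1 lay above Sod2 in 6 of 6 libraries, by a geometric mean ratio of 1.78. Sod2 lay above Nfe2l2 in 6 of 6, by a ratio of 1.68. In each of these 2 pairs the exact sign-flip permutation test, two-sided, gave p = 0.0312, the smallest that 6 libraries allow, and 0.0938 after adjustment over the 6 neighbouring pairs. The pairs were taken from the order in these same libraries, so these p-values do not test an order set beforehand. Below these 2 pairs the order was not resolved. Nfe2l2 lay above Nqo1 in 5 of 6 libraries, the exception being MCA replicate 3. Nqo1 lay above Gclc in 1 of 6 although its mean was higher, because MCA replicate 3 raised that mean. Gclc lay above Hmox1 in 4 of 6 and Hmox1 above Cat in 4 of 6 (exact sign-flip p = 0.469 and 0.906).

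Ratios between the genes within a library do not move with library scaling, and 7 were compared between the groups. The Hmox1 to Nfe2l2 ratio of FPKM was 0.740, 0.769 and 0.658 in MCA replicates 1, 2 and 3. The suture group had 0.371, 0.202 and 0.469 in the same order. The groups did not overlap, and MCA replicate 2 lay with the other MCA libraries here although its Nfe2l2 level did not. The difference of mean log2 ratios was 1.14, and it ran from 0.79 to 1.39 when 1 library was left out. The Sod1 to Sod2 ratio was 1.41, 1.49 and 1.17 in MCA replicates 1, 2 and 3. The suture group had 1.90, 2.17 and 3.15 in the same order, so the cytosolic enzyme's transcript exceeded the mitochondrial one's by less in every MCA library. The difference of mean log2 ratios was -0.80, and it ran from -0.95 to -0.59 when 1 library was left out. Both ratios had an exact permutation p of 0.1, the smallest possible, and 0.35 after Benjamini-Hochberg adjustment over the 7 ratios, so neither passed. Hmox1 and Sod2 also did not overlap on their own, so these ratios are not separate results. How often ratios of other tested genes do not overlap was not counted. The Cat to Sod1, Cat to Sod2, Nqo1 to Nfe2l2, Gclc to Nfe2l2 and Hmox1 to Nqo1 ratios overlapped between the groups (exact permutation p between 0.2 and 0.7). Without MCA replicate 2 the Nqo1 to Nfe2l2 ratio no longer overlapped, with a log2 difference of 1.31 (exact permutation p = 0.1, the smallest possible) in place of 0.69. The Cat to Sod2 ratio no longer overlapped either, at -0.85 (exact permutation p = 0.2) in place of -0.56, and both had an adjusted exact permutation p of 0.35.

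**Figure D3:**
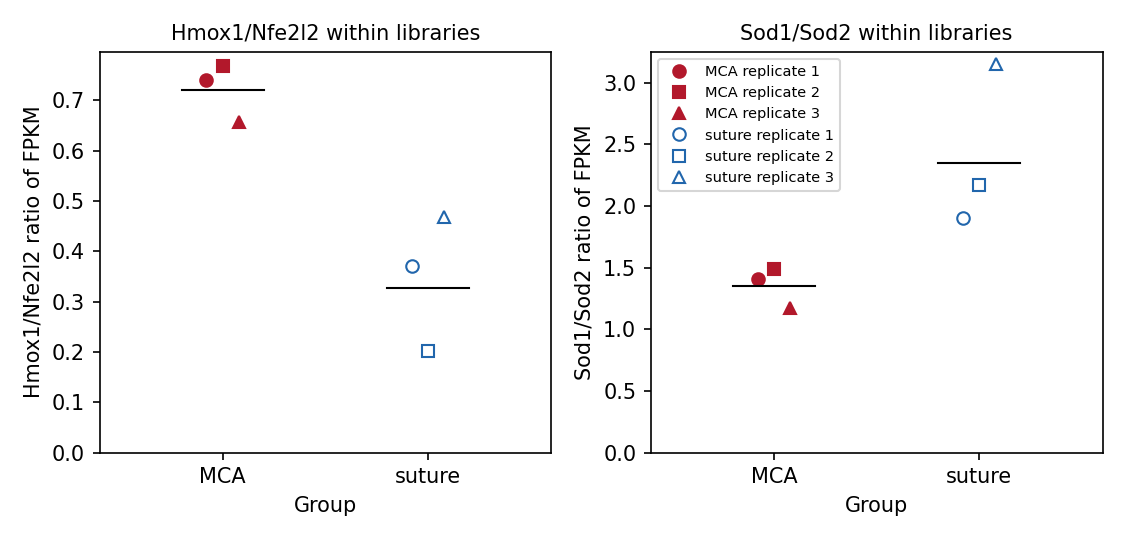
Ratio of FPKM within each library for Hmox1 over Nfe2l2 (left) and Sod1 over Sod2 (right), by group, with a bar at the geometric mean (n = 3). The 3 MCA libraries lie between 0.658 and 0.769 on the left, above all suture libraries, and between 1.17 and 1.49 on the right, below all suture libraries.

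Nfe2l2 and Nqo1 followed each other closely across the 6 libraries, but not in the order of suture replicates 2 and 3. Those had 31.3 and 32.3 FPKM of Nfe2l2 and 14.7 and 12.6 FPKM of Nqo1. Over log2(FPKM + 1) Pearson's r was 0.990 (exact permutation p = 0.00417, and 0.025 after Benjamini-Hochberg adjustment over the 6 enzyme genes). Spearman's rho was 0.943 (exact permutation p = 0.0167, adjusted 0.1). Of the 13589 other tested genes, 2 had an r with Nfe2l2 at least as high. Without MCA replicates 1 and 3, the libraries farthest from the median of Nfe2l2, r was 0.943 over 4 libraries, of which suture replicate 1 alone stood above the other 3. With the group means removed it was 0.989. Nqo1 varied over a wider range than Nfe2l2, 16.9-fold against 2.77-fold between the highest and the lowest library.

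The other enzymes followed Nfe2l2 less closely. For Sod2, r was 0.922 (exact permutation p = 0.0167, adjusted 0.05, which does not fall below the threshold) and rho was 0.600 (exact p = 0.242, adjusted 0.357). It fell to 0.505 without MCA replicates 1 and 3, so that relation rests on those libraries. For Hmox1, r was 0.792 (exact p = 0.0667, adjusted 0.133) and rho was 0.657 (exact p = 0.175, adjusted 0.35), with r at 0.214 without the same libraries. For Gclc, r was 0.487 (exact p = 0.356, adjusted 0.443) and rho was 0.714 (exact p = 0.136, adjusted 0.35). Gclc was highest in suture replicate 1 and Nfe2l2 in MCA replicate 3. For Sod1, r was 0.439 (exact p = 0.369, adjusted 0.443) and rho was 0.543 (exact p = 0.297, adjusted 0.357). For Cat, r was -0.03 (exact p = 0.968, adjusted 0.968) and rho was 0.143 (exact p = 0.803, adjusted 0.803). Among the tested genes other than Nfe2l2, 0.935% had an r at least that of Sod2 and 6.41% at least that of Hmox1. The share was 29.4% for Gclc, 33.1% for Sod1 and 59.7% for Cat. Without MCA replicates 1 and 3, r was 0.999 for Gclc, 0.0108 for Sod1 and -0.978 for Cat, each over 4 libraries of which 3 had nearly the same Nfe2l2 level. All of these relations share the same 6 libraries, and the mix of cells in each piece, which could move several genes at once, was not tested.

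**Figure D4:**
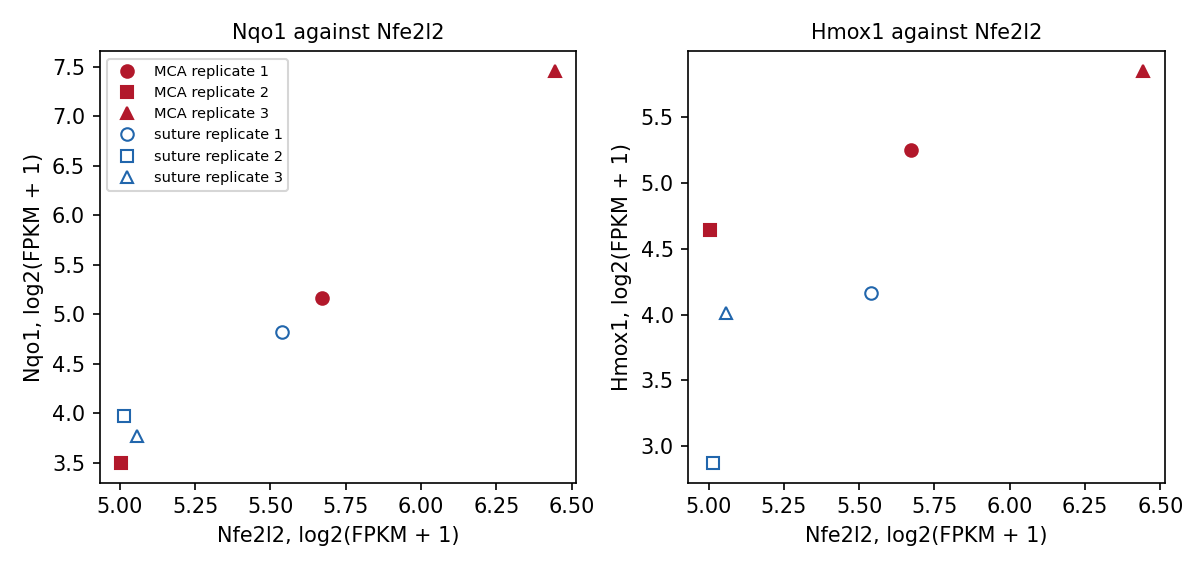
Nqo1 (left) and Hmox1 (right) against Nfe2l2, both as log2(FPKM + 1), with 1 point per library, filled red for MCA and open blue for suture. Nqo1 tends to be higher in the libraries with more Nfe2l2 (r = 0.990 over the 6). In the Hmox1 plot MCA replicate 2 lies well above the 2 suture libraries of similar Nfe2l2 level.

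Among all 21 pairs of the 7 genes, Spearman's rho over the 6 libraries was above 0 in 19, with a median of 0.486. The share of pairs above 0 among other tested genes was not counted. The highest values, 0.943, belonged to Nfe2l2 with Nqo1 and to Hmox1 with Sod2, the genes whose groups did not overlap. The lowest, -0.486, belonged to Gclc with Cat, whose highest and lowest values respectively both came from suture replicate 1. These pairs share libraries and genes and are given as a description.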

How the data were processed

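RNA was extracted with TRIzol from frozen tissue of the join, and the NEBNext Ultra kit gave libraries that were sequenced on a DNBSEQ-T7, per the labels' protocols. The deposited values are an FPKM matrix normalized by the authors, per the labels' protocols, with 1 column per library. The submitters' processing notes name limma without its role. For the aligner, counting program, genome build, annotation and strand, the answer is not given in the sources used here. Groups came from the treatment labels and replicate numbers from the titles. The labels call the libraries biological replicates.

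The members and lists were chosen with earlier results of these data known. The rule for named genes was the 7 members only. The reference table (47357 rat genes) held 0 Ensembl identifiers, so a wider antioxidant list and cell type markers were not analysed here. Each FPKM value stems from whole fragments, so library totals were recovered from ratios between libraries of genes under 0.5 FPKM, and all 21417 genes then gave whole fragments within 0.001 of a fragment. The 13591 genes averaging 1 FPKM or more entered limma 3.58.1, run in R 4.3.3 on log2(FPKM + 1), with a mean-variance trend, two-sided, and Benjamini-Hochberg adjustment over all of them at 0.05. Ratios, levels and correlations used two-sided exact permutation tests in Python 3.11.15 with numpy 2.4.6 and pandas 2.3.3. Figures used matplotlib 3.10.9. The recovery and the limma procedure were tested on simulated data. Alternatives were other pseudocounts (0.5 and 0.1), filters (none, and a mean of 5 FPKM), scalings, weights, limma-voom on recovered fragments, a replicate block and leaving out each library.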

Additional observations from a re-analysis of the deposited data

How the results depend on the processing

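None of the 7 genes passed the adjusted threshold in any of the 18 alternative settings, whose smallest adjusted limma p was 0.163, for Hmox1 with array quality weights. Nfe2l2, Hmox1, Nqo1 and Sod2 kept a higher mean with MCA in all 18, with log2 folds of 0.13 to 0.85, 1.16 to 1.86, 0.14 to 2.12 and 0.49 to 1.01. The sign turned for Gclc with array quality weights (0.54), without MCA replicate 2 (0.24) and without suture replicate 1 (0.58). It turned for Cat with array quality weights (-0.0178) and without suture replicate 1 (-0.0752), and for Sod1 without MCA replicate 2 (0.15) and without suture replicate 3 (0.09). Over the 6 libraries left out in turn, log2 folds ran from -0.47 to 0.58 for Gclc, from -0.20 to 0.15 for Sod1 and from -0.08 to 0.30 for Cat. The difference in the Hmox1 to Nqo1 ratio, 0.44, was -0.219 without MCA replicate 2 and lay between -0.219 and 1.2002 with 1 library left out. The other 6 ratios kept their sign in 7 settings, but that of Nqo1 to Nfe2l2 ran from 0.0017 without MCA replicate 3 to 1.31 without MCA replicate 2. The Cat to Sod1 difference ran from 0.0189 without MCA replicate 2 to 0.43, and that of Gclc to Nfe2l2 from -0.89 to -0.0837. Non-overlapping genes were 2 to 4 of the 7 when 1 library was left out, with 4 only without MCA replicate 2. Of all tested genes, 24.1% did not overlap in that comparison and 13.3% to 20.7% in the other 5. Members at an unadjusted limma p under 0.05 numbered 1 to 4 with 1 library left out and 2 (Hmox1 and Sod2) with quantile, upper quartile or median scaling, without the 10 most abundant genes, with array quality weights or the replicate block. These counts were added after seeing the data.

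Of all genes tested, 35 passed the adjusted threshold with array quality weights, where the unweighted limma fit and limma-voom gave 0. Genes at an unadjusted p under 0.05 numbered 1360 with the weights and 667 without. Weights ran from 0.290 (MCA replicate 2) to 4.31 (MCA replicate 1). The same count fell to 334 when only the 9229 genes averaging 5 FPKM or more were kept, and lay between 511 and 1065 (without MCA replicate 2) with 1 library left out. A replicate block raised it to 1141, with 0 past the adjusted threshold. With the block the standard error of the Hmox1 log2 fold was 0.22, against 0.45 in the main fit. Its limma p was 0.000924 unadjusted and 0.245 adjusted. The labels do not say that numbers pair animals, and deviations of same-numbered libraries correlated at 0.42, 0.53 and -0.0016, so no pairing was used. MCA replicate 3 correlated best with suture replicate 1.

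The correlation of Nfe2l2 with Nqo1 was 0.943 over 4 libraries and 0.990 without MCA replicate 2, with exact adjusted p of 0.375 and 0.05. That with Sod2 was 0.907 after removal of the 10 most abundant genes (exact permutation, adjusted p = 0.0458). That with Cat was 0.0330 without MCA replicate 2. How far depth limits the comparison apart from the spread between animals was not tested.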
